A study of Saccharomyces cerevisiae with 14 samples.

Results

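NFRI 3155 is a *Saccharomyces cerevisiae* strain that was labelled heat sensitive, and its transcriptional response to 39°C was followed here across all genes. Its 4 arrays were taken from a series of 14: 2 arrays came from cells of NFRI 3155 kept at 30°C and 2 from cells of NFRI 3155 given a heat treatment at 39°C. The other arrays came from the standard strain S288C, with 3 arrays at each temperature, and from the heat tolerant strain NFRI 3236, with 2 at each temperature. Each array was hybridised with polyadenylated RNA of 1 culture, and the methods describe independently grown cells in the rich medium YPD. For the heat treatment, exponentially growing cells were placed in a water bath for 30 min, so the arrays show a short exposure. No engineered change is described for these strains, so NFRI 3155 is 1 isolate with its own genetic background and its response may not hold for other heat-sensitive strains. Of 10928 probe sets, 5498 are named for a single *S. cerevisiae* gene, which gave 5449 genes, of which 5443 passed a filter on low signals and were tested.

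In budding yeast, heat is answered mainly through Hsf1, which drives genes for molecular chaperones, and through Msn2 and Msn4, which drive a general stress program of storage carbohydrates, antioxidants and small protective proteins. Chaperones bind unfolded proteins, trehalose and hydrophilins protect proteins and membranes, and the proteasome and the vacuole remove what cannot be refolded. At the same time yeast cells lower transcripts for ribosomes, translation and cell division, which make up much of the transcription of a growing cell.

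The values are log2 signals relative to the 75th percentile of each array, so that a level of 0 lies at that percentile, and a log2 change of 1 is a doubling. The 75th percentile itself was a signal of 233 and 244 on the arrays at 30°C and of 282 and 270.2 on those at 39°C. Both arrays at 30°C correlated with r = 0.987 across genes and both at 39°C with r = 0.962, and 97.4% and 90.0% of genes lay within 2-fold between the replicates. Genes are not independent replicates in these correlations. The spread between replicates was wider after heat, with a median SD of 0.12 at 30°C and 0.26 at 39°C on the log2 scale (n = 2 each). Between 5197 and 5285 genes were above background, a level set by the probe sets of *Schizosaccharomyces pombe* on the same array. Of 12 probe sets for the spiked polyadenylated controls, 10 and 9 were above background at 30°C and 12 on each array at 39°C, and the part of this difference in the results was not tested. The 3' to 5' signal ratio of *ACT1* was 1.26 to 1.44 on the 4 arrays, with no separation by temperature, while that of *WBP1* was 2.98 and 2.58 at 30°C and 3.83 and 3.42 at 39°C. For *SPT15* it was 4.46 and 4.01 at 30°C and 4.01 and 4.97 at 39°C. The heat label was checked with 5 heat shock genes: *HSP26*, *SSA4*, *HSP42*, *HSP104* and *HSP78* were each higher on both arrays at 39°C than on both arrays at 30°C.

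At 39°C, 987 genes were higher (18.1% of those tested) and 1312 were lower (24.1%) at an adjusted p under 0.05, and 3144 genes did not pass the test. Among the risers, 630 changed at least 2-fold, 228 at least 4-fold and 41 at least 16-fold, and among the fallers 955, 234 and 7. Changes of 16-fold or more were mostly rises, whereas the fallers were more numerous in all. For 36 risers no array at 30°C was above background, and for 4 fallers no array at 39°C was. The median log2 change over all genes was -0.08 after the 75th percentile shift, 0.13 without a shift, -0.02 after quantile normalization and -0.36 after a shift to the median. The share of risers among the called genes was 42.9% in the first of these, 54.0% without a shift, 48.3% after quantile normalization and 26.1% after the shift to the median. No called gene was called in the opposite direction under these other scalings, but without a shift 591 genes were higher and 503 lower, and after the shift to the median 616 were higher and 1744 lower.

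The largest rise belonged to *HSP26*, whose product gathers denatured proteins into aggregates from which they can be recovered. Its log2 level was -4.10 and -3.96 at 30°C and 4.99 and 5.15 at 39°C, a 548-fold rise (9.10 ± 0.30 SE on the log2 scale; adjusted p = 1.00e-09). *DDR2*, a small stress protein of unclear function, stood at -4.30 and -3.93 at 30°C and 4.13 and 4.06 at 39°C and rose 295-fold. *HSP26* and *DDR2* were above background on both arrays at 30°C but close to it, so the sizes of their folds are uncertain. *HSP30*, a plasma membrane protein that acts on the proton pump, had log2 levels of -2.84 and -2.89 at 30°C and 3.75 and 4.45 at 39°C. The membrane-associated protein gene *HSP12* was at -1.77 and -1.58 at 30°C and 5.02 and 5.09 at 39°C, and rose 106-fold. The inducible Hsp70 gene *SSA4* was at -1.07 and -0.93 at 30°C and 4.50 and 4.67 at 39°C, a 48.1-fold rise. In all 5 genes both arrays at 39°C lay far above both arrays at 30°C, and the replicates at each temperature differed by less than 1 on the log2 scale.

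Genes of sugar phosphate metabolism held 3 of the 12 largest rises. *TKL2*, the minor transketolase of the pentose phosphate pathway, was at -3.26 and -2.57 at 30°C and 3.09 and 3.63 at 39°C and rose 77.4-fold (adjusted p = 6.39e-08). *NQM1*, a transaldolase, rose 57.7-fold, and *SOL4*, a 6-phosphogluconolactonase, rose 44.5-fold. *EGO4*, a small gene of unknown function, rose 153-fold, with log2 levels of -3.72 and -2.68 at 30°C and 4.35 and 3.76 at 39°C and its replicates about 1 apart at 30°C. *GPG1*, which codes for a proposed partner of the G protein that senses glucose, rose 55.7-fold, *FMP16*, whose product was found in mitochondria, 53.8-fold and the reticulon gene *RTN2* 45.4-fold. *RTN2* was above background on only 1 of the arrays at 30°C, so its fold rests on a weak starting signal. The log2 changes of the 12 genes lay between 5.48 and 9.10, with adjusted p-values of 4.79e-07 or lower.

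**Figure D1:**
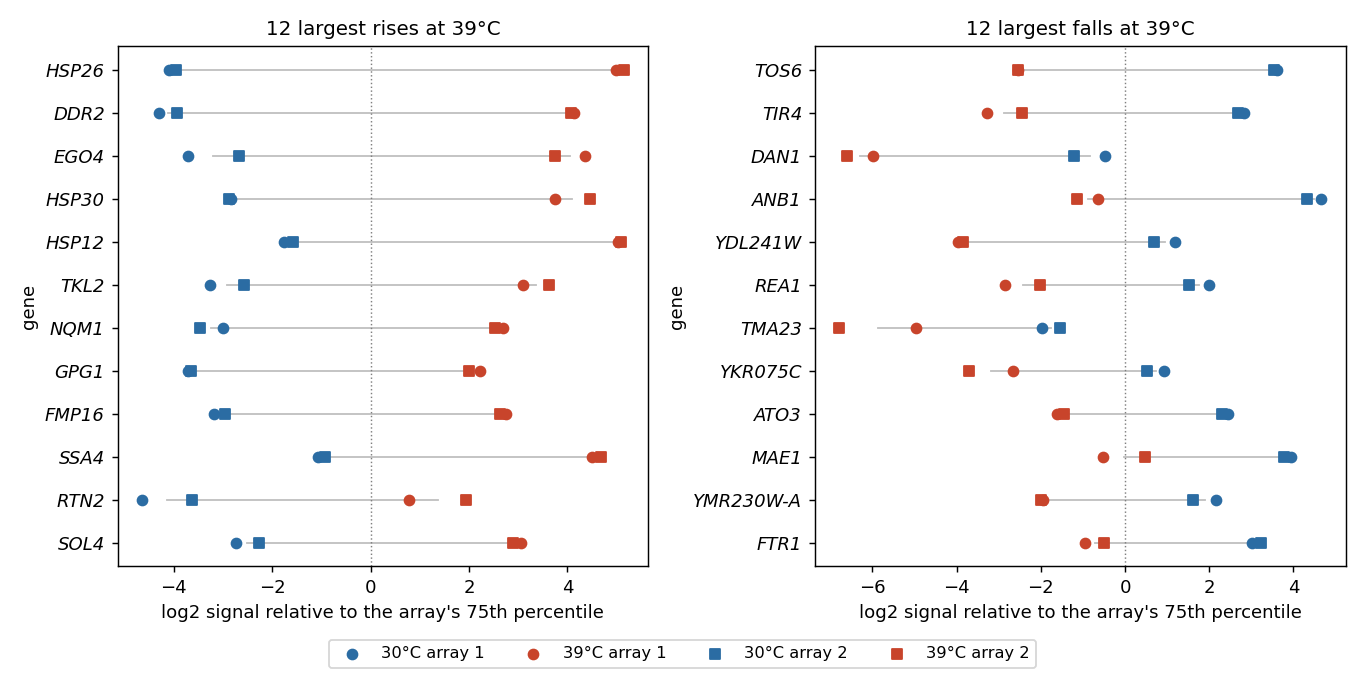
Log2 signal relative to the 75th percentile of each array (horizontal axis) for the 12 genes with the largest rises (left) and the 12 with the largest falls (right) in NFRI 3155. Blue marks the arrays at 30°C and red those at 39°C, circles are replicate 1 and squares replicate 2, and grey lines join the group means. In each of the 24 genes the arrays of the 2 temperatures are separate, from a log2 change of 9.10 for *HSP26* to -6.11 for *TOS6*.

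The largest fall was that of *TOS6*, a cell wall protein with a glycosylphosphatidylinositol anchor. Its log2 level was 3.61 and 3.53 at 30°C and -2.54 and -2.53 at 39°C, so that it was 69.01-fold lower at 39°C (-6.11 ± 0.49 SE; adjusted p = 8.83e-07). The cell wall mannoprotein genes *TIR4* and *DAN1*, known from growth without oxygen, also fell: *TIR4* was 49.7-fold lower, with log2 levels of 2.83 and 2.70 at 30°C and -3.29 and -2.45 at 39°C. *DAN1* was at -0.47 and -1.21 at 30°C and -5.99 and -6.60 at 39°C, and since it was not above background on either array at 39°C its fall is given as at least 18.9-fold. *ANB1*, the hypoxic copy of the eIF5A gene, fell by 5.37 on the log2 scale, with levels of 4.66 and 4.31 at 30°C and -0.63 and -1.14 at 39°C. In these 4 genes the replicates lay within 1 of each other on the log2 scale and the temperatures did not overlap.

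The other large falls belonged to ribosome assembly and to transport and metabolism. *REA1*, the large ATPase that strips factors from the 60S precursor, was 18.1-fold lower, at 1.99 and 1.51 at 30°C and -2.84 and -2.02 at 39°C. *TMA23*, a nucleolar protein of ribosome assembly, was at -1.97 and -1.55 at 30°C and -4.96 and -6.80 at 39°C, with only 1 of the arrays at 39°C above background and a gap between the replicates of more than 1. *FTR1*, the iron permease, was 14.4-fold lower, *MAE1*, the mitochondrial malic enzyme, 14.8-fold lower and *ATO3*, a transporter of the ammonium and acetate family, 15.04-fold lower. The 12 were completed by 3 genes without a known function, *YDL241W* (28.7-fold lower), *YKR075C* (15.1-fold) and *YMR230W-A* (14.6-fold). All of these kept both replicates at 39°C below both at 30°C.

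Chaperones did not rise as a block: among Hsp70 genes inducible members rose and members that serve protein synthesis fell. Of 11 Hsp70 and exchange factor genes, 3 rose and 4 fell, with a median log2 change of 0.33. The counts depended on the scaling: after quantile normalization 6 rose and 4 fell, with a median of 1.02, and without a shift 3 rose and 3 fell. The inducible forms *SSA4*, *SSE2* (4.67 ± 0.29 SE) and *SSA3* (3.41 ± 0.26) were the risers. The ribosome-bound Hsp70 genes *SSB1* (-1.16), *SSB2* (-2.38) and *SSZ1* (-1.99), which fold nascent chains, fell together with *SNL1* (-1.53), although *SSB1* shares probes with its paralog. The abundant constitutive gene *SSA1* did not pass the test, with log2 levels of 3.93 and 3.70 at 30°C and 4.08 and 4.21 at 39°C. Of 11 Hsp40 genes, which feed substrates to Hsp70, 2 rose and 2 fell, shares near or below the 18.1% and 24.1% of all genes. The risers were *SWA2* (1.16) and *XDJ1* (0.81), and the fallers *ZUO1* (-1.88) and *JJJ1* (-2.0) serve at the ribosome.

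Of 15 genes for Hsp90, its cochaperones and the disaggregase Hsp104, 6 rose and 3 fell (median 0.51). These counts were 9 and 3 after quantile normalization (median 1.09), and 5 and 1 without a shift. *HSP82*, the inducible Hsp90 gene, was at 0.02 and -0.11 at 30°C and 3.95 and 4.16 at 39°C, a 17.1-fold rise. The constitutive copy *HSC82* had log2 levels of 4.58 and 4.02 at 30°C and 4.20 and 4.48 at 39°C and did not pass the test, so the inducible copy moved while the other was within its spread. *HSP104* rose 10.2-fold, and the cochaperone genes *CPR6*, *AHA1* and *STI1* rose by 2.28, 2.09 and 2.03 on the log2 scale. *PPT1*, a phosphatase that acts on Hsp90, fell by 1.99 on the log2 scale. Of 8 small heat shock and membrane stress genes, 6 rose and none fell, with a median of 3.67, among them *HSP42* (2.66 ± 0.38 SE) and *YRO2* (4.53 ± 0.39 SE). The shift to the median turned 1 member into a faller.

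Among the chaperones of the organelles more genes rose than fell, whereas over all genes 18.1% rose and 24.1% fell. In mitochondria 3 of 12 genes rose (25%), a share of risers near that of all genes, and none fell (median 0.50). The disaggregase gene *HSP78* rose 9.15-fold, with log2 levels of -0.75 and -0.52 at 30°C and 2.53 and 2.59 at 39°C. *MDJ1*, which activates the mitochondrial Hsp70, rose by 1.28 on the log2 scale. The central mitochondrial chaperone genes *SSC1* (0.50; adjusted p = 0.094) and *HSP60* (0.58; adjusted p = 0.12) did not pass the test. In the endoplasmic reticulum 8 of 20 folding genes rose and none fell (median 0.46), led by the nucleotide exchange factor gene *SIL1* (8.89-fold) and the thiol oxidase gene *ERO1* (5.8-fold). After quantile normalization 12 of these genes and 6 of the mitochondrial genes rose, and without a shift 7 and 2. *KAR2*, the luminal Hsp70 gene that marks the unfolded protein response, stood at 4.42 and 4.51 at 30°C and 4.78 and 5.07 at 39°C and did not pass the test. The 8 genes of the cytosolic chaperonin CCT held no riser and 1 faller, *CCT8*, and the median of -0.24 became 0.12 after quantile normalization. The call of *CCT8* (-0.63) was lost without 30°C replicate 1, 30°C replicate 2 or 39°C replicate 2, with adjusted p-values of 0.060, 0.26 and 0.19.

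Of 34 proteasome genes 24 rose and none fell, against 18.1% and 24.1% of all genes, with a median log2 change of 0.74 and a largest change of 1.63 for *RPN12*, a subunit of the regulatory particle. *PRE3*, a catalytic subunit, had log2 levels of 2.30 and 2.17 at 30°C and 3.69 and 3.42 at 39°C. The count depended on the setting: 6 proteasome genes were called without a shift, 9 after the shift to the median and 29 after quantile normalization, 14 without 30°C replicate 2, and 11 each without 30°C replicate 1 and without 39°C replicate 1. *RPN4*, whose product drives proteasome transcription, did not pass the test (-0.25; adjusted p = 0.55). Of 32 genes for ubiquitin and quality control 16 rose and 3 fell (median 0.67), and the polyubiquitin gene *UBI4* was at 0.51 and 0.91 at 30°C and 3.50 and 3.41 at 39°C, a 6.7-fold rise. Among the fallers, *RPL40B* (-1.89) makes ubiquitin as a fusion to a ribosomal protein, and its copy *RPL40A* (-0.83) was not called when any of the 4 arrays was left out (highest adjusted p 0.21). Without 30°C replicate 2 the count of risers was 6, without 30°C replicate 1 it was 8 and without a shift it was 5.

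Genes of autophagy and the vacuole rose in part. Of 32 autophagy genes 15 rose and none fell, with a median of 0.72. *ATG34*, a receptor for vacuolar hydrolases, stood at -3.58 and -2.92 at 30°C and -0.23 and -0.26 at 39°C, *ATG33* and *ATG36*, which take part in the removal of mitochondria and peroxisomes, rose by 2.31 and 1.70, and the kinase gene *ATG1* by 1.91 on the log2 scale. Of 9 genes for vacuolar proteases and their inhibitor 6 rose (median 1.38), and *PBI2*, which codes for the inhibitor of proteinase B, was the largest at -0.04 and 0.03 at 30°C and 3.60 and 2.95 at 39°C. The protease genes *APE1*, *PRC1* and *PRB1* rose by 2.63, 1.57 and 1.38.

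For the storage carbohydrates, genes of both synthesis and breakdown rose. Of 10 trehalose genes 7 rose and 1 fell, with a median of 1.81. The synthase subunit gene *TPS1* was at 2.10 and 2.43 at 30°C and 4.19 and 4.30 at 39°C, a 3.93-fold rise, and *TSL1*, a regulatory subunit, rose 5.14-fold. The trehalase genes *NTH1* (5.16-fold) and *ATH1* (7.54-fold), which break trehalose down, rose as well. Of 13 glycogen genes 6 rose and 1 fell (median 0.63). Glycogen phosphorylase, *GPH1*, was at -2.37 and -1.43 at 30°C and 2.72 and 3.31 at 39°C, a 30.2-fold rise, and the debranching enzyme gene *GDB1* rose 7.85-fold. In both lists the faller was an isozyme of a riser: *PGM1* fell by 1.58 while *PGM2* rose by 2.89, and *GSY1* fell by 1.64 while *GSY2* rose by 2.44, on the log2 scale.

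The list of hydrophilins and stationary phase genes held the highest share of risers among those of 20 genes or more: 19 of 23 rose and 1 fell, with a median of 3.16. Hydrophilins are small hydrophilic proteins made on water loss and starvation. *SIP18* was at -4.53 and -5.66 at 30°C and 0.49 and -0.65 at 39°C, with 1 of the arrays at 30°C above background. *SPI1*, a cell wall protein of stationary phase, stood at -0.22 and 0.36 at 30°C and 4.21 and 4.44 at 39°C, a 19.2-fold rise, and *MOH1* rose 19.97-fold. The faller *NOP6* (-2.68 ± 0.49 SE) has a hydrophilin-like composition but works in ribosome assembly, and its replicates at 39°C were -1.14 and -3.22. *SNO1* and *SNZ1*, which mark starvation in late stationary phase, did not pass the test, at 0.12 and 0.09.

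Antioxidant genes rose in part. Of 15 genes for catalases, superoxide dismutases and peroxiredoxins 9 rose and 1 fell (median 0.79). The inducible peroxiredoxin gene *TSA2* was at -2.84 and -2.99 at 30°C and 0.49 and 0.44 at 39°C, a 10.4-fold rise, and mitochondrial *PRX1* rose 8.91-fold. The cytosolic catalase gene *CTT1*, a marker of Msn2 and Msn4 activity, rose 3.11-fold, with log2 levels of 0.61 and 1.38 at 30°C and 2.53 and 2.73 at 39°C. *SOD1* did not pass the test (0.17; adjusted p = 0.69), whereas the gene for its copper chaperone, *CCS1*, was 3.65-fold lower. Of 22 thioredoxin and glutathione genes 8 rose and 2 fell, led by the glutathione transferase gene *GTT1* (5.98-fold) and the glutaredoxin gene *GRX1* (4.02-fold). The fall of *TRX1* (-1.36) was not called after quantile normalization (adjusted p = 0.080), and without a shift 5 of this list rose and none fell.

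Stress regulators were called in either direction, at shares near those of all genes. Of 30 stress transcription factor genes 7 rose and 5 fell (median 0.12, and -0.16 after the shift to the median), and 4 and 1 without a shift. *HSF1* was at -1.61 and -1.51 at 30°C and -0.55 and -0.61 at 39°C, a 1.97-fold rise, and *USV1* rose by 2.64 on the log2 scale. *XBP1*, a repressor of cell cycle genes made under stress, rose by 2.95 ± 0.65 SE. *CIN5*, a Yap-family factor, had log2 levels of 0.36 and 0.65 at 30°C and -2.73 and -3.34 at 39°C and was 11.7-fold lower. *MSN2* did not pass the test (-0.70; adjusted p = 0.074), and the fall of *MSN4* (-1.39; adjusted p = 0.014) was lost without 39°C replicate 1 (-0.67; adjusted p = 0.17), without 30°C replicate 1 or 30°C replicate 2 (0.061 and 0.058) and in the fit without the S288C arrays. Of 17 genes of the cAMP and protein kinase A pathway 5 rose and 2 fell (3 and 1 without a shift), with *GPG1* and the phosphodiesterase gene *PDE1* (1.47) the largest risers and *RAS1* (-1.60) the largest faller.

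The cell wall integrity pathway, which repairs the wall under heat, held 7 risers and 8 fallers of 34 (median 0.00), near the 18.1% and 24.1% of all genes. Its kinase gene *SLT2* was at 0.75 and 1.0 at 30°C and 2.50 and 2.53 at 39°C, a 3.13-fold rise, and the wall protein genes *PIR3* (16.2-fold) and *PST1* (6.35-fold) rose. The largest faller was *SVS1*, whose product is needed for vanadate resistance, at 1.95 and 1.97 at 30°C and -1.95 and -1.76 at 39°C. The counted faller *MLP1* (-1.53) was matched by name to YKR095W, a nuclear pore gene and not a gene of this pathway. After quantile normalization 12 rose. The count of fallers was 3 without 30°C replicate 1, without 30°C replicate 2 and without 39°C replicate 1, and 1 without a shift.

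**Figure D2:**
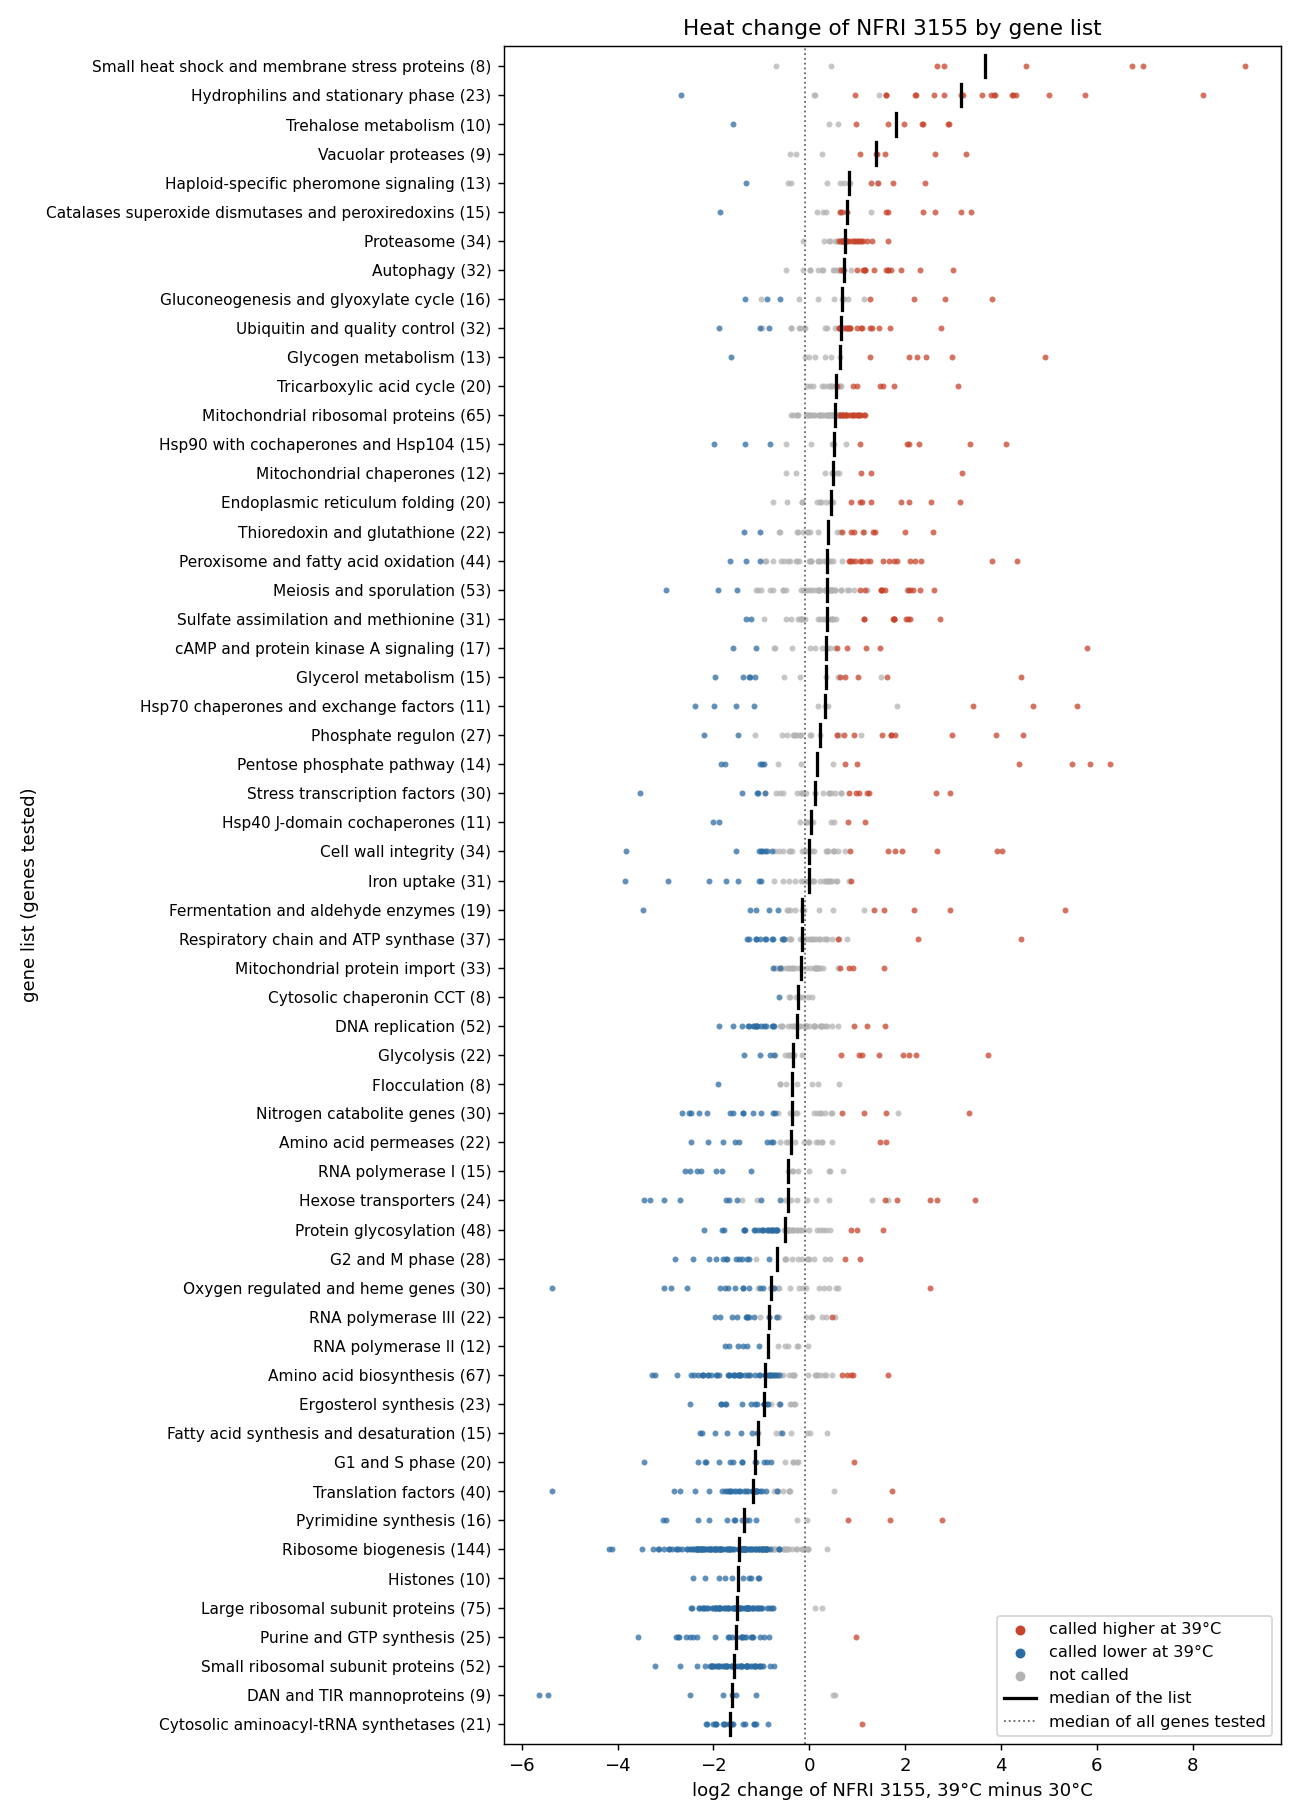
Log2 change of NFRI 3155 at 39°C against 30°C (horizontal axis) for each tested member of the gene lists with 8 or more genes, ordered by the list median (black bar), with the number of genes tested in parentheses. Red points were called higher, blue points lower and grey points were not called, and the dotted line is the median of all genes at -0.08. Small heat shock proteins have the highest median, 3.67, and aminoacyl-tRNA synthetases the lowest, -1.65.

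Genes of central carbon metabolism were called in both directions. Of 14 pentose phosphate genes 6 rose and 5 fell, and of 22 glycolysis genes 8 rose and 4 fell, against 18.1% and 24.1% of all genes. Without a shift 2 pentose phosphate genes and none of glycolysis fell. In each of 4 steps of the pentose phosphate pathway the minor isozyme rose and the major one did not: *TKL2* rose by 6.28 on the log2 scale and *TKL1* changed by -0.94, *NQM1* by 5.85 and *TAL1* by -0.18, *SOL4* by 5.48 and *SOL3* by -1.0, and *GND2* by 4.38 and *GND1* by -0.65. *TKL1* and *SOL3* passed the test, *TAL1* and *GND1* did not, and the call of *TKL1* (adjusted p = 0.014) was lost in 2 of 4 fits with 1 array left out (adjusted p = 0.10 without 39°C replicate 1). The pairs shown for this pathway and in the plot of isozymes were chosen after their values were seen.

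In glycolysis, *GPM2*, a minor phosphoglycerate mutase gene, was at -2.74 and -1.72 at 30°C and 1.91 and 1.08 at 39°C, while the major gene *GPM1* was at 5.51 and 5.36 at 30°C and 4.93 and 5.14 at 39°C and did not pass the test. *TDH1*, the glyceraldehyde-3-phosphate dehydrogenase gene of stressed cells, rose 4.66-fold and *PYK2*, the pyruvate kinase gene used at low flux, 4.25-fold. *TDH3* (-0.32) and *CDC19* (-0.43), the main genes for the same steps, did not pass the test. *HXK2*, the main hexokinase gene in glucose, was 2.58-fold lower, with log2 levels of 4.70 and 4.60 at 30°C and 3.24 and 3.33 at 39°C, and this call was lost without a shift (adjusted p = 0.054). *HXK1* rose by 1.10, a call lost in 2 of 4 fits with 1 array left out (adjusted p = 0.18 without 30°C replicate 1). The median of the glycolysis list was -0.33, and 0.29 after quantile normalization.

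Among 19 fermentation and aldehyde enzymes 5 rose and 5 fell (26.3% each), shares not far from the 18.1% and 24.1% of all genes. The fallers were 1 without a shift and 2 after quantile normalization. The cytosolic aldehyde dehydrogenase gene *ALD3*, known from stress, was at -2.95 and -2.80 at 30°C and 2.23 and 2.68 at 39°C, a 40.3-fold rise. *ALD6*, which makes cytosolic acetate during growth, went the other way, at 4.35 and 4.38 at 30°C and 1.15 and 0.63 at 39°C, and was 11.2-fold lower. The acetyl-CoA synthetase genes parted in the same manner, *ACS1* with a log2 change of 2.19 and *ACS2* with -1.11. The pyruvate decarboxylase genes *PDC1* (-0.47) and *PDC5* (-0.14) and the alcohol dehydrogenase gene *ADH1* (-0.40) did not pass the test.

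**Figure D3:**
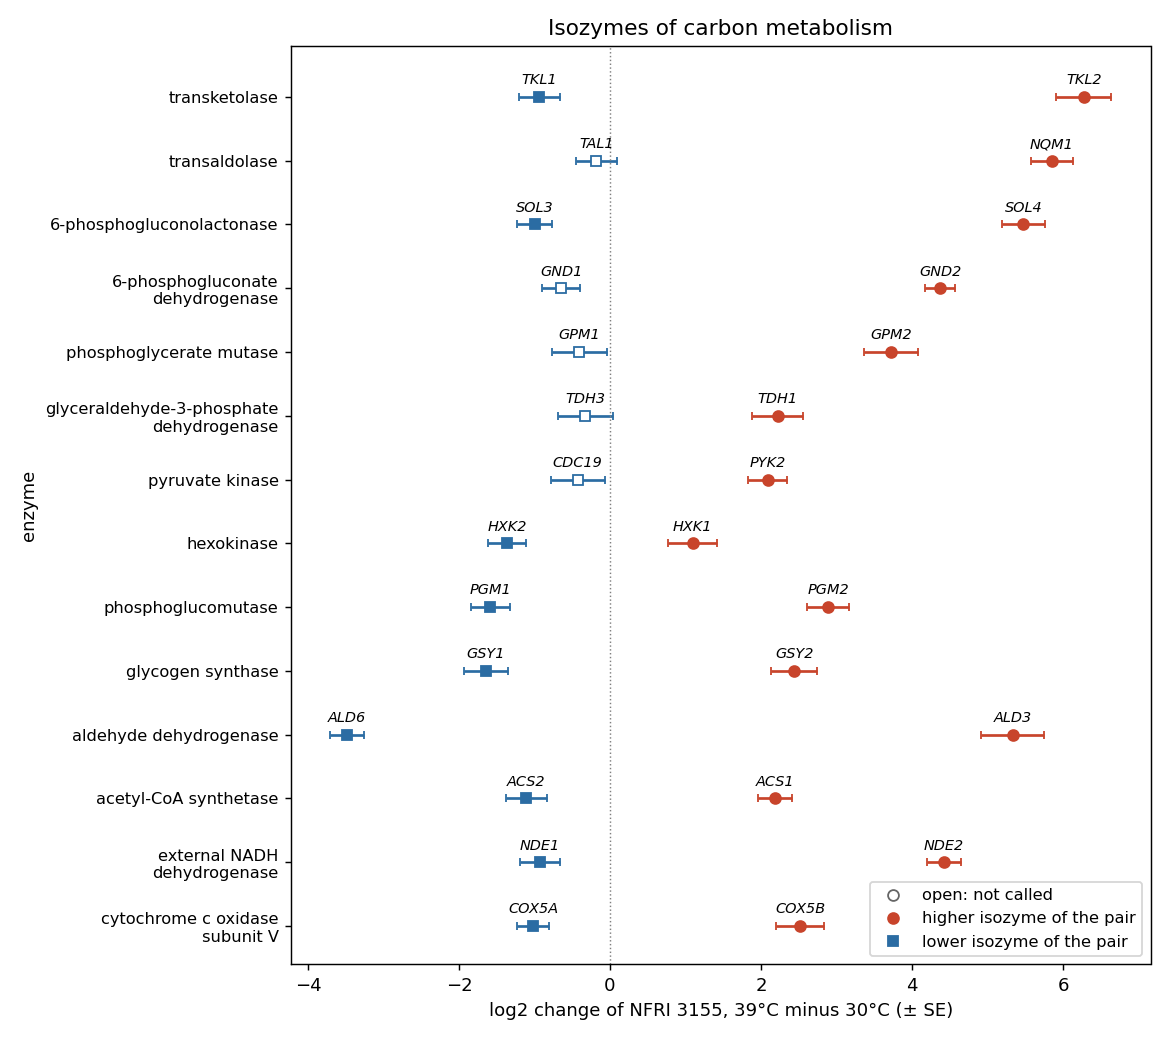
Log2 change of NFRI 3155 at 39°C against 30°C, with its SE, for 14 pairs of isozymes of carbon and energy metabolism, the more positive member as a red circle and the other as a blue square. Open symbols did not pass the test. The red members lie between 1.10 for *HXK1* and 6.28 for *TKL2*, and the blue members between -3.48 for *ALD6* and -0.18 for *TAL1*.

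Hexose transporter genes used during growth on glucose were among the fallers. Of 24 transporter and sensor pathway genes 9 fell and 5 rose, with a median of -0.45. *HXT2* was at 4.59 and 4.37 at 30°C and 1.18 and 0.89 at 39°C, *HXT4* at 4.01 and 4.11 at 30°C and 0.35 and 1.10 at 39°C and *HXT3* at 4.60 and 4.60 at 30°C and 1.85 and 1.98 at 39°C, and they were 10.9, 10.1 and 6.47-fold lower. Each had its temperatures fully apart. The glucose-signal genes *MTH1* (-3.03), *MIG2* (-1.74) and *MIG1* (-1.5) also fell. *HXT5*, the transporter of starved and stressed cells, rose 10.99-fold, from a signal above background on 1 of the arrays at 30°C. *HXT9* and *HXT11* rose 6.34 and 5.75-fold, and since they are near-identical copies their signals are uncertain.

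Of 44 peroxisomal genes 17 rose and 3 fell (median 0.37), against 18.1% and 24.1% of all genes. *POT1*, the thiolase of fatty acid oxidation, was at -4.76 and -3.94 at 30°C and 0.11 and -0.13 at 39°C and *POX1*, the oxidase of the same pathway, rose by 2.21. The fallers *PEX11* (-1.31) and *PEX25* (-1.65) act in the division of peroxisomes, and *PEX11* was not called without a shift (adjusted p = 0.11). Of 16 genes of gluconeogenesis and the glyoxylate cycle 4 rose and 3 fell, shares near those of all genes: malate synthase, *MLS1*, stood at -7.86 and -4.49 at 30°C and -2.44 and -2.28 at 39°C, where replicate 1 at 30°C was at the lowest signal allowed, and *PCK1* rose by 2.84, and both were above background on 1 of the arrays at 30°C. *ICL1* and *FBP1*, which act beside them, did not pass the test at 0.18 and 0.70. In glycerol metabolism 5 of 15 genes rose and 5 fell (3 and 1 without a shift), with the reductase gene *GCY1* (21.3-fold) the largest riser and the synthetic genes *GPP1* (-1.24) and *GPD2* (-1.25) among the fallers, though *GPD2* was not called without 30°C replicate 1 (adjusted p = 0.082).

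Mitochondrial lists differed in their counts. Of 20 genes of the tricarboxylic acid cycle 7 rose and none fell (median 0.56), with 4 risers without a shift and 13 after quantile normalization, and 4 of the 7 belong to succinate dehydrogenase: the assembly factor genes *SDH6*, *SDH5* and *SDH7* rose by 3.10, 1.77 and 1.48, and the subunit gene *SDH4* by 0.99 on the log2 scale, a call that *SDH4* kept in 2 of 4 fits with 1 array left out and lost without 30°C replicate 1 (adjusted p = 0.10). *SDH6* was at -1.53 and -1.08 at 30°C and 2.09 and 1.5 at 39°C. Of 37 respiratory chain and ATP synthase genes 3 rose and 11 fell, with a median of -0.15 that became 0.06 without a shift and 0.05 after quantile normalization. *NDE2*, a dehydrogenase on the outer face of the inner membrane, was at -4.63 and -4.29 at 30°C and -0.29 and 0.21 at 39°C, a 21.4-fold rise with 1 of the arrays at 30°C above background, and *STF1*, which stabilises the inhibitor of ATP synthase, rose 4.81-fold. The fallers included *CYT1* (-1.31), *CYC1* (-1.26) and *COX5A* (-1.02), and none of the 11 was called without a shift. *COX5B*, the hypoxic partner of *COX5A*, was at -0.75 and -0.20 at 30°C and 2.41 and 1.67 at 39°C, a 5.72-fold rise. Of 65 mitochondrial ribosomal protein genes 20 rose and none fell, with a median of 0.54 and a largest change of 1.16 for *RSM19*, which was not called without 30°C replicate 1 (adjusted p = 0.058) or 39°C replicate 1 (0.060). This count was 3 without 30°C replicate 1, 7 without 39°C replicate 1, 34 without 39°C replicate 2 and 3 without a shift. Of 33 genes of mitochondrial protein import 4 rose and 2 fell, fewer than the 18.1% and 24.1% of all genes, with *MIA40* (1.56), which folds proteins of the intermembrane space, the largest riser.

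The machinery of protein synthesis fell almost as a whole. Of 75 large subunit ribosomal protein genes 72 fell and none rose (median -1.50), and of 52 small subunit genes 51 fell (median -1.57), against 24.1% of all genes. *RPL13A* was at 4.85 and 4.82 at 30°C and 2.42 and 2.33 at 39°C and *RPS0A* at 4.53 and 4.39 at 30°C and 1.22 and 1.26 at 39°C, and they were 5.52 and 9.31-fold lower. *RPL15B* (0.27), *RPL22B* (0.12) and *RPL41A* (-0.76) did not pass the test in the large subunit, nor did *RPS31* (-0.99) in the small. Many of these genes have a near-identical copy, and probes were shared for 12 large and 13 small subunit genes, so their copies cannot be told apart. The size of the fall depended on the scaling, with medians of -0.81 and -0.87 after quantile normalization, and 43 and 32 genes were called without a shift.

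Most genes of ribosome assembly fell. Of 144 genes 117 fell and none rose, with a median of -1.47, and 69 fell without a shift. Beside *REA1* and *TMA23*, the box H/ACA protein gene *GAR1* was at 4.54 and 4.42 at 30°C and 1.01 and 0.94 at 39°C and the methylase gene *NOP1* at 4.81 and 4.60 at 30°C and 1.63 and 1.26 at 39°C, 11.3 and 9.58-fold lower. Each had its replicates within 0.4 on the log2 scale. *RCL1* was the only member with a positive change (0.36), which did not pass the test. Of 15 genes for RNA polymerase I and its factors 7 fell, and these were the 7 genes for subunits of the enzyme named *RPA*, from -1.22 for *RPA14* to -2.60 for *RPA190*, while the 8 genes for initiation and upstream factors such as *RRN3* (-0.37) did not pass the test. RNA polymerase III had 11 fallers of 22, led by *RPC34* (-1.96), and RNA polymerase II 6 of 12, which included the subunits shared between the polymerases, *RPO26* (-1.76) and *RPB8* (-1.67). Without a shift 4 genes of RNA polymerase III and 2 of RNA polymerase II fell. *RPO21*, the largest subunit of RNA polymerase II, did not pass the test (-0.26).

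Of 40 translation factor genes 31 fell and 1 rose, with a median of -1.17, and 13 fell without a shift. *TIF11*, which codes for initiation factor eIF1A, was at 3.87 and 3.70 at 30°C and 1.67 and 0.24 at 39°C, and *TIF4631*, which codes for a scaffold of the cap complex, was 6.45-fold lower. The riser was *HEF3*, a second copy of elongation factor 3, at -3.37 and -2.96 at 30°C and -1.32 and -1.54 at 39°C, while the main gene *YEF3* fell by 1.10 on the log2 scale, a call lost without 30°C replicate 1 (adjusted p = 0.051). Of 21 cytosolic aminoacyl-tRNA synthetase genes 20 fell (median -1.65), with *DED81*, for asparagine, at 4.16 and 3.92 at 30°C and 1.74 and 2.02 at 39°C. The exception was *GRS2*, the inducible second glycyl-tRNA synthetase gene (1.11), a rise that was not called without 30°C replicate 1, 30°C replicate 2 or 39°C replicate 2 (adjusted p of 0.055, 0.060 and 0.10).

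Genes for the precursors of RNA and protein fell as well. Of 25 purine and GTP genes 24 fell (median -1.52), or 13 without a shift, with the adenine deaminase gene *AAH1* at 2.42 and 1.96 at 30°C and -1.34 and -1.43 at 39°C and GMP synthase, *GUA1*, 6.91-fold lower. *ADE16* alone rose (0.97), a call lost without a shift (adjusted p = 0.055), while its isozyme gene *ADE17* fell by 1.18. Of 16 pyrimidine genes 11 fell and 3 rose. *URA1* (7.9-fold lower) and the salvage gene *FUR1* (8.25-fold lower) were the largest fallers, and isozyme genes parted again: *URA10* rose by 2.77 and *URA5* fell by 1.4, and *URA8* rose by 1.69 and *URA7* fell by 2.33 on the log2 scale. Of 67 amino acid genes 43 fell and 5 rose (median -0.93), and 24 and 1 without a shift. *LYS4* of lysine synthesis was at 3.01 and 2.74 at 30°C and -0.61 and -0.21 at 39°C and *ARO4* of aromatic amino acid synthesis at 4.45 and 4.36 at 30°C and 0.87 and 1.51 at 39°C, and *GDH1*, the main glutamate dehydrogenase gene, fell by 2.40 while *GDH3* rose by 1.65.

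Sulfur and phosphate genes stood apart from this fall. Of 31 genes for sulfate assimilation and methionine 10 rose and 2 fell, with a median of 0.36. *MET3*, the sulfurylase that starts sulfate activation, was at -0.96 and -0.91 at 30°C and 1.62 and 1.95 at 39°C, a 6.58-fold rise, and *MET17*, which joins sulfide to the carbon skeleton, was at 2.54 and 2.45 at 30°C and 4.38 and 4.71 at 39°C. The sulfate permease genes *SUL1* and *SUL2* rose by 2.11 and 1.78, and *MET2*, *STR3*, *MET16* and *MET14* by 2.01, 1.77, 1.77 and 1.74 on the log2 scale. In each of these the arrays at 39°C were above those at 30°C. The regulators *MET4* (0.22) and *MET28* (-0.16) did not pass the test, and the fallers *SAM1* (-1.32) and *SAH1* (-1.21) belong to the use of methionine as a methyl donor, the latter not called without 39°C replicate 1 (adjusted p = 0.051) and neither called without a shift (0.073 for *SAM1* and 0.10 for *SAH1*).

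Of 27 genes of the phosphate regulon 10 rose and 2 fell (median 0.22, and -0.06 after the shift to the median). *GIT1*, the permease for glycerophosphoinositol, was at -3.78 and -3.13 at 30°C and 0.84 and 1.15 at 39°C and *PHM8*, a phosphatase gene, at -3.80 and -2.67 at 30°C and 1.09 and 0.24 at 39°C, 21.9 and 14.9-fold higher. The high-affinity phosphate transporter gene *PHO84* rose 2.88-fold and *VTC3*, of polyphosphate synthesis, 3.27-fold. *PHO90*, a low-affinity transporter gene, was 4.56-fold lower and *PHO4*, the activator of the regulon, fell by 1.5. The count of risers was 6 without 30°C replicate 2.

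Genes for the uptake of nitrogen and iron were called in both directions. Of 22 amino acid permease genes 8 fell and 2 rose, against 24.1% and 18.1% of all genes, and the general permease gene *GAP1* was at 0.31 and 0.12 at 30°C and -2.25 and -2.26 at 39°C, 5.53-fold lower. Of 30 nitrogen catabolite genes 13 fell and 4 rose: asparaginase, *ASP1*, was 5.66-fold lower, while *UGA2*, of the use of 4-aminobutyrate, was at -2.58 and -2.16 at 30°C and 0.92 and 1.0 at 39°C, a 10.1-fold rise. Of 31 iron genes 7 fell and 1 rose, a share of fallers near that of all genes. Without a shift the fallers were 4 permease, 7 nitrogen and 3 iron genes. *FTR1* and its partner oxidase gene *FET3* were 14.4 and 7.76-fold lower, with *FET3* at 1.43 and 2.36 at 30°C and -1.31 and -0.81 at 39°C, while the regulator genes *AFT1* (0.40) and *AFT2* (0.42) did not pass the test. The riser *FIT1* (0.86) was not called when any of the 4 arrays was left out (adjusted p of 0.094 to 0.19).

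Many lipid, heme and hypoxic genes fell. Of 23 ergosterol genes 16 fell and none rose (median -0.94), among them squalene epoxidase, *ERG1*, at 5.11 and 4.96 at 30°C and 2.96 and 3.41 at 39°C, and *MVD1*, of the mevalonate pathway, which was 5.6-fold lower. After quantile normalization 8 were called and without a shift 6. Of 15 fatty acid genes 8 fell (4 without a shift), with *FAS2*, the synthase subunit gene, at 3.37 and 3.49 at 30°C and 0.72 and 1.58 at 39°C and the elongase gene *ELO2* 4.73-fold lower. The desaturase gene *OLE1* did not pass the test (-1.06; adjusted p = 0.066). Of 30 oxygen-regulated and heme genes 14 fell (7 without a shift) and 1 rose, with *HEM13*, of heme synthesis, at 4.53 and 4.33 at 30°C and 1.34 and 1.44 at 39°C, and the hypoxic carrier gene *AAC3* and the sterol importer gene *AUS1* fell by 2.88 and 2.55 on the log2 scale. Of 9 DAN and TIR mannoprotein genes 7 fell (median -1.62), while *DAN4* (0.53) and *PAU24* (0.50) did not pass the test. The hypoxic genes did not all move one way, since *COX5B* rose and *CYC7* (0.31) did not pass the test. Of 48 glycosylation genes 23 fell and 3 rose (median -0.52), led by the mannosyltransferase gene *MNN10* (4.57-fold lower), and 3 fell without a shift.

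Cell division genes fell in several phases. RNA was taken from whole cultures, so fewer cells in a phase and less RNA per cell cannot be told apart. Among 20 genes that peak in G1 or S phase, 14 fell and 1 rose (median -1.13). The S phase cyclin gene *CLB6* was at -1.43 and -1.62 at 30°C and -4.73 and -5.23 at 39°C, with 1 of the arrays at 39°C above background, and the G1 cyclin genes *CLN1* and *CLN2* were 4.51 and 4.44-fold lower. Of 28 genes of the G2 and M phases 13 fell and 2 rose, and the mitotic cyclin genes *CLB2* and *CLB1* were at -0.01 and 0.48 at 30°C and -2.81 and -2.34 at 39°C and at 1.12 and 1.30 at 30°C and -1.16 and -1.29 at 39°C. All 10 histone genes fell (median -1.50), from -1.05 for the linker histone gene *HHO1* to -2.43 for *HTB2*, with 2 of them on shared probes. Without a shift the fallers were 7 of the G1 and S genes, 8 of the G2 and M genes, 5 histone and 2 DNA replication genes. Of 52 DNA replication genes 17 fell and 3 rose, which is 32.7% and 5.77% against 24.1% and 18.1% of all genes. The ribonucleotide reductase genes parted, with *RNR1* 3.67-fold lower and *RNR3*, the damage-induced form, higher by 1.58 on the log2 scale. *RNR3* was not called without 30°C replicate 1 (adjusted p = 0.052) or without 39°C replicate 2 (adjusted p = 0.053).

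Many genes of meiosis and mating were near background. Of 53 meiosis genes 32 were above it on all 4 arrays, against 5141 of all 5443 genes tested. Of these genes 11 rose and 3 fell (median 0.36), a share of risers near the 18.1% of all genes, and 7 rose after quantile normalization or the shift to the median, with the recombinase gene *DMC1* at -4.09 and -3.24 at 30°C and -0.84 and -1.29 at 39°C, while the inducer gene *IME1* did not pass the test (0.21). *CDA1*, of the spore wall, was below background on both arrays at 30°C, with replicate 2 at the lowest signal allowed, and was called only with all 4 arrays or without 30°C replicate 1 (adjusted p = 0.41 without 30°C replicate 2). Of 13 haploid-specific genes 8 were above background on all 4 arrays, as were 4 of 7 a-specific and 3 of 5 alpha-specific genes. Markers of both mating types were thus detected, at smaller shares than all genes. In these lists 4 haploid-specific genes rose and 1 fell, 3 a-specific genes rose and 1 fell, and 1 alpha-specific gene rose. *RME1*, a repressor of meiosis, rose by 2.43 on the log2 scale and *STE4*, a G protein subunit gene, by 1.74, while the receptor gene *STE2* did not pass the test. Of 8 flocculation genes only *PHD1* was called (-1.90), and none of the 5 AAD genes, for aryl-alcohol dehydrogenases, was.

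The response of NFRI 3155 was compared with those of S288C and NFRI 3236 by testing the difference of the log2 changes. Against S288C, 416 genes had a more positive response in NFRI 3155 (7.64%) and 483 a more negative one (8.87%), and against NFRI 3236 these were 96 (1.76%) and 40 (0.735%). Against both strains 48 genes were more positive and 30 more negative. The arrays of S288C at 30°C stood apart from all others, with 0, 0 and 1 of the 12 spiked control probe sets above background, and their part in the differences from S288C was not tested. NFRI 3236 39°C replicate 2 had the highest 3' to 5' ratio of *WBP1* of all arrays, 10.9. Its part in the differences from NFRI 3236 was not tested. Both differences share the arrays of NFRI 3155, so that agreement between them is not independent.

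In several lists the share of genes that differed from the other strains was above these shares. For sulfate assimilation and methionine, 11 of 31 genes were more positive in NFRI 3155 than in S288C and 6 than in NFRI 3236. *MET17* rose by 2.05 in NFRI 3155 and changed by -0.79 in S288C and -0.83 in NFRI 3236, with differences of 2.84 (adjusted p = 3.29e-04) and 2.88 (adjusted p = 0.0019). *MET3* rose by 2.72 and changed by 0.20 and -1.28, with differences of 2.52 and 3.99, and *MET14* by 1.74, -0.18 and -0.93. The differences of these 3 genes were called when any 1 array of the strains compared was left out. Without a shift, those from NFRI 3236 were not called for *MET17* (adjusted p = 0.11) and *MET14* (0.22), nor those from S288C for *MET3* (0.058) and *MET14* (0.18).

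For the phosphate regulon, 8 of 27 genes were more positive than in S288C and 5 than in NFRI 3236. *PHO5*, the secreted acid phosphatase gene, changed by 0.93 in NFRI 3155 (a call kept in 2 of 4 fits with 1 array left out), -2.74 in S288C and -1.39 in NFRI 3236, and *VTC3* by 1.71, -0.56 and 0.32, its difference from NFRI 3236 being called in 2 of 8 fits with 1 array left out. Without a shift the differences from NFRI 3236 were not called for *PHO5* (adjusted p = 0.26) and *VTC3* (0.62), nor that from S288C for *VTC3* (0.070). Of 23 hydrophilin and stationary phase genes 7 were more positive than in NFRI 3236, while 4 were more and 4 less positive than in S288C. *FMP16* changed by 5.75 in NFRI 3155, 1.89 in NFRI 3236 and 5.90 in S288C, where the difference did not pass the test (-0.15; adjusted p = 0.83), and *SIP18* by 5.01, 0.80 and 3.35. *CTT1* rose less than in S288C (1.64 against 4.10; adjusted p = 0.0031), and the change of *SSA1* was smaller too (0.33 against 2.66; adjusted p = 0.0035). Against NFRI 3236, where they changed by -0.03 and 0.03, neither difference passed the test (adjusted p = 0.096 and 0.81). The falls of ribosomal proteins were smaller than in S288C for 44 of 75 large and 25 of 52 small subunit genes. Against NFRI 3236 limma called 0 of both lists, with 2 large and 0 small subunit genes at an unadjusted p under 0.05, and the medians were -1.69 and -1.63 there. The responses of ribosome assembly genes were more negative than in S288C for 29 of 144 genes and more negative than in NFRI 3236 for 7.

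By the smaller of both differences, 10 genes were named, 5 in each direction. *TKL2* rose by 6.28 on the log2 scale in NFRI 3155, 2.35 in S288C and 2.86 in NFRI 3236, and *NDE2* by 4.42, 1.64 and 0.95. *YER138W-A*, whose probe set is shared with other sequences, rose by 3.11 and changed by 0.38 and -0.07. *MF(ALPHA)1*, the alpha-factor gene, met the rule through the other strains, where it changed by -1.59 in S288C and -2.54 in NFRI 3236, and in NFRI 3155 it was not above background at 30°C and its own change was not called (adjusted p = 0.075). In the other direction, *TMA23* fell by 4.12 in NFRI 3155 and changed by -0.10 and 0.93, the sterol deacetylase gene *SAY1* fell by 2.10 where the other strains changed by 0.57 and 0.20, and *YVH1*, a phosphatase gene with a part in 60S maturation, changed by -3.64 against -1.35 and -1.29. *YPS6*, a wall protease gene, rose less, by 1.21 against 3.54 and 3.35, and its rise was not called without 30°C replicate 2 (0.92; adjusted p = 0.072). The differences from NFRI 3236 were called in 5 of 8 fits with 1 array left out for *YPS6* and *YER138W-A* and in 3 of 8 for *MF(ALPHA)1*, and without a shift they were not called for *TKL2* (adjusted p = 0.094), *YDL241W* (0.084), *YER138W-A* (0.075), *YPS6* (0.061) and *MET17* (0.11).

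Of the 3 candidate genes of the study, *FMP21*, an assembly factor gene of succinate dehydrogenase, was at 1.17 and 1.25 at 30°C and 1.71 and 1.58 at 39°C in NFRI 3155, a change of 0.43 ± 0.22 SE that did not pass the test (adjusted p = 0.13). Its changes were 1.17 in S288C and 1.88 in NFRI 3236, and the difference from NFRI 3236 was -1.45 (adjusted p = 0.028), a call that remained in 3 of 8 fits with 1 array left out. Without a shift the difference of *FMP21* from NFRI 3236 was not called (adjusted p = 0.16), and its difference from S288C did not pass the test with the shift. *PRM5*, a gene of the cell integrity pathway, was at -4.34 and -5.25 at 30°C and -1.02 and -0.75 at 39°C, a 15.1-fold rise with 1 of the arrays at 30°C above background, and its differences from S288C (-0.83; adjusted p = 0.27) and NFRI 3236 (-1.68; adjusted p = 0.14) did not pass the test. *YER034W*, of unknown function, fell by 1.02 in NFRI 3155, with log2 levels of -2.42 and -2.44 at 30°C and -3.33 and -3.58 at 39°C, and changed by 0.68 and 1.63 in the other strains, with adjusted p-values of 0.0022 and 5.53e-04 for the differences. The fall of *YER034W* itself was not called without a shift (adjusted p = 0.23). By real-time RT-PCR the paper reports a rise of *FMP21* in each strain, in each case larger than its arrays gave. By that method it found that *FMP21* followed thermotolerance, while *YER034W* and *PRM5* were unrelated to it. The array test alone therefore does not show that *FMP21* was unchanged by heat. The paper also reports RT-PCR of *FMP21* in further strains, and growth after its deletion and overexpression, which these arrays do not cover.

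**Figure D4:**
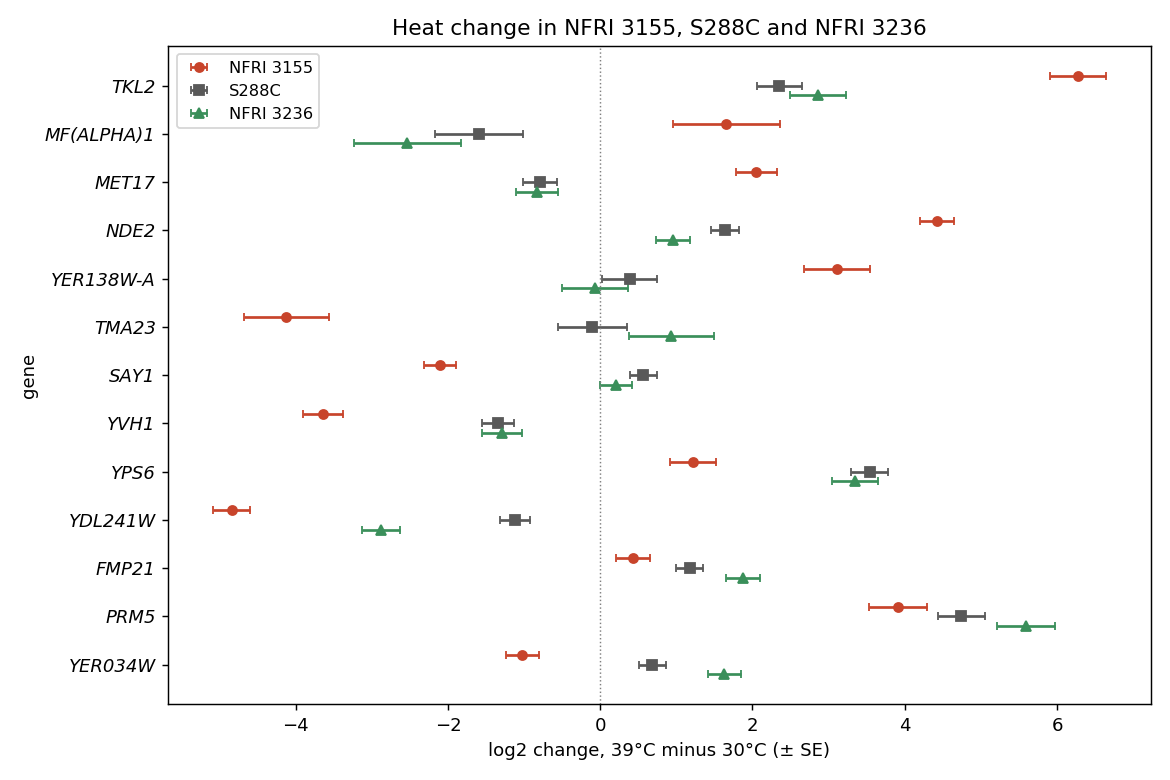
Log2 change at 39°C against 30°C, with its SE from the common fit, in NFRI 3155 (red circles), S288C (grey squares) and NFRI 3236 (green triangles) for the 10 genes that differed most from both strains and the 3 candidate genes of the study. *TKL2* lies at 6.28 in NFRI 3155 against 2.35 and 2.86, and *TMA23* at -4.12 against -0.10 and 0.93.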

How the data were processed

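Polyadenylated RNA of 3 strains at 30°C and 39°C was hybridised to 14 Affymetrix Yeast Genome 2.0 arrays. The authors deposited 1 signal intensity per probe set and array, made with GCOS. Signals below 1 were set to 1, log2 was taken and the 75th percentile over all probe sets of each array was subtracted. A gene was tested if it lay above the 20th percentile of every array of at least 1 group, and where a gene had several probe sets the brightest was kept. Probe sets of *S. pombe* gave the background, as their 95th percentile on each array. Groups came from the labels. Limma 3.58.1 in R 4.3.3 was fitted to 6 group means over all arrays, with Benjamini-Hochberg adjustment over 5443 genes, and a gene was called at an adjusted p under 0.05. A difference between strains is a contrast of both heat responses. SE is from this fit. The fit was tested on simulated data. S288C carries labels for 3 arrays at each temperature, where the methods describe duplicates.

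Named genes were the 12 largest rises and falls among called genes with separate temperatures and both arrays of the brighter temperature above background, up to 2 risers and 2 fallers of each list by the same conditions, the 5 genes per direction that differed most from both other strains, and *FMP21*, *PRM5* and *YER034W*. Called genes named beyond these were chosen after their values were seen. The gene lists, which matched 1627 of 1636 names, and the members were chosen with earlier results of these data known. The alternatives were other scalings, 16 added to each signal, no filter, genes above background only, the mean of the probe sets, fits without S288C or on 4 arrays, a replicate block, the methods' t-test and leaving out each array. The number of arrays limits the precision. Probe and promoter sequences were not analysed here.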

Additional observations from a re-analysis of the deposited data

Results flagged for a closer look

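The heat response of NFRI 3155 was set against that of the other strains for the 24 genes with its largest changes, for the 10 genes that differed most from both strains and for *FMP21*, *PRM5* and *YER034W*. The values are differences of log2 changes, NFRI 3155 minus the other strain, with an adjusted p under 0.05 in limma. Both differences use the same arrays of NFRI 3155, and the arrays of S288C at 30°C stood apart in their spiked controls.

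Among the large rises, NFRI 3155 exceeded both strains for *TKL2* (3.92 against S288C and 3.42 against NFRI 3236), *HSP30* (1.41 and 2.16) and *NQM1* (1.36 and 2.01). It exceeded NFRI 3236 for *HSP26* (1.8), *DDR2* (2.08), *HSP12* (2.10) and *FMP16* (3.86), and S288C for *RTN2* (1.87), while *SOL4* rose less than in S288C (-1.71). The differences of *TKL2* and *FMP16* were called whichever 1 array was left out. Those of *HSP26* and *HSP12* were called in 1 of 8 such fits, with adjusted p-values of 0.15 and 0.14 without NFRI 3155 30°C replicate 1, and that of *DDR2* in 0 of 8. *HSP30* was called in 7 of 10 fits against S288C and 4 of 8 against NFRI 3236, and *NQM1* in 7 of 10 and 5 of 8. Without a shift neither gene was called, with adjusted p-values of 0.34 and 0.30 for *HSP30* and 0.37 and 0.36 for *NQM1*. The difference of *RTN2* from S288C was not called without a shift either (adjusted p = 0.23). The same held against NFRI 3236 for *HSP26* (0.42), *DDR2* (0.36), *HSP12* (0.34) and *TKL2* (0.094).

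Among the large falls, the response was more negative than in S288C for *TIR4* (-5.17), *DAN1* (-4.21), *MAE1* (-3.37), *TOS6* (-2.05) and *FTR1* (-1.76), and more negative than in NFRI 3236 for *YKR075C* (-2.37) and *ATO3* (-1.94). For *TMA23* (-4.02 and -5.06) and *YDL241W* (-3.73 and -1.96) the response was more negative than in both, though *TMA23* had no called change in either of the other strains. Without a shift the differences of *TOS6* (adjusted p = 0.063) and *FTR1* (0.068) from S288C were not called, nor that of *YDL241W* from NFRI 3236 (0.084). With 1 array left out, the difference was called in 0 of 10 fits for *TOS6*, 4 of 8 for *YKR075C* and 3 of 8 for *ATO3*, and without a shift that of *ATO3* was not called (adjusted p = 0.11). *DAN1* was not above background on either array of NFRI 3155 at 39°C, so the size of its difference rests on signals below background.

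The genes chosen for their difference from S288C and from NFRI 3236 were *MF(ALPHA)1* (3.25 and 4.19), *MET17* (2.84 and 2.88), *NDE2* (2.78 and 3.47) and *YER138W-A* (2.73 and 3.18), beside *TKL2*, and in the other direction *SAY1* (-2.67 and -2.31), *YVH1* (-2.30 and -2.35) and *YPS6* (-2.32 and -2.13), beside *TMA23* and *YDL241W*. *MF(ALPHA)1* was not above background on either array of NFRI 3155 at 30°C, with replicate 2 at the lowest signal allowed, so the sizes of its differences are not measured well and no bound is given, and they were called in 4 of 10 and 3 of 8 fits with 1 array left out. *FMP21* differed from NFRI 3236 by -1.45, and *YER034W* from the strains by -1.71 and -2.66. Without a shift the difference of *FMP21* was not called (adjusted p = 0.16), and that from S288C did not pass the test with the shift.

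Of the probe sets without a gene name, 18 were above background on both arrays at 39°C and on neither at 30°C, and 22 the other way round.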

How the results depend on the processing

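None of the 198 named genes that were called changed direction in any alternative fit. No called gene was called in the opposite direction under the other scalings. The direction of the strain differences was not checked, nor that of the other called genes beyond the scalings. Without a shift, 591 genes were higher and 503 lower in NFRI 3155, and the heat response differed from S288C for 172 genes and from NFRI 3236 for 24, against 899 and 136. Of the risers 575 and of the fallers 503 were called with and without the shift. After the shift to the median 616 genes were higher. The difference from NFRI 3236 held 210 genes with 16 added to each signal, 60 in the fit without the S288C arrays and 83 with the replicate block. With that block 896 genes were higher and 1229 lower. Samples with the same number did not deviate together (r = -0.0087 for NFRI 3155), so the numbers were not taken to pair them. The methods' t-test gave 786 higher and 999 lower genes at an unadjusted p under 0.05 and 0 and 0 after adjustment. With 1 array left out, 635 to 926 genes were higher and 954 to 1228 lower, both lowest without NFRI 3155 30°C replicate 1, the difference from S288C held 384 to 942 genes, with 384 without NFRI 3155 30°C replicate 2, and that from NFRI 3236 63 to 280, with 63 without NFRI 3155 30°C replicate 1 and 280 without NFRI 3236 39°C replicate 1. The cause of these shifts was not tested. Of 198 named genes that were called, 36 lost the call without a shift, 9 after quantile normalization, 11 after the shift to the median and 15 to 24 with 1 array of NFRI 3155 left out. With 2 arrays at each temperature, small changes could not be told from the spread.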
